A study of Mus musculus with 4 samples.

Results

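Rab genes encode small GTPases of membrane traffic, and their promoters were examined here in H3K4me3 data of mouse hippocampus. Members were all protein-coding genes of the GENCODE mouse M21 annotation whose symbol is Rab, a number and at most 1 letter, which gave 59 of 21853 protein-coding genes. The rule uses names only and no measured value.

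The study profiled histone H3 trimethylated at lysine 4 by chromatin immunoprecipitation and sequencing (ChIP-seq). The animals were adult B6CASTF1/J males aged 2 months, a hybrid of a laboratory strain and a wild-derived strain, with no treatment named in the labels. There were 2 pools, pool D and pool C, which are biological replicates of 1 group. Each pool combined 7 biosamples and gave 2 technical libraries that share 1 alignment. The tissue is labelled as a layer of hippocampus, without saying which layer. Pooling hides differences between animals, whole tissue mixes cell types, and reads from both parental genomes were placed on mm10, which is the build of the laboratory strain.

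Rab proteins switch between a GTP-bound form, which sits on a membrane and recruits effector proteins, and a GDP-bound form that a GDP dissociation inhibitor keeps in the cytosol. Exchange factors load GTP and GTPase-activating proteins end the active state, so that each Rab marks a particular compartment or transport step. In neurons, Rab proteins are known for roles in synaptic vesicle release, receptor recycling at synapses and axonal transport. H3K4me3 lies around the start sites of genes with active or poised promoters.

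A gene was called marked where a deposited peak shared at least 1 bp with the 1 kb on either side of any start site of its protein-coding transcripts. Peaks separated by at most 1 kb were joined into domains, and the breadth of a gene is that of its broadest domain, in bp. The authors deposited 24690 peaks for pool D, 34193 for pool C, 27063 replicated peaks and 31301 peaks called on both pools together. Depth is unknown from the peak lists, and with 2 pools of 1 group no test between conditions was possible. Markers of the labelled tissue were looked up first. All 10 genes listed for hippocampal excitatory neurons carried a promoter peak in both pools, though Rbfox3, Snap25 and Syn1 among them are general neuronal genes. All 5 astrocyte markers carried one too, while liver albumin gene Alb and muscle actin gene Acta1 carried none in any list. Microglia markers were marked at 0 of 6 genes in pool D and 6 of 6 in pool C. The replicated list marked 3 of 6, so a peak of that list need not be present in the lists of both pools. The microglia domains in pool C were narrow, with a median of 379.5 bp against 2403 bp for all marked genes. Interneuron markers were marked at 3 of 6 in pool D and 5 of 6 in pool C. Oligodendrocyte lineage markers were marked at 5 of 6 genes in pool D against 6 of 6 in pool C, endothelial markers at 4 of 5 against 5 of 5, liver markers at 0 of 5 against 1 of 5 and keratinocyte markers at 1 of 4 against 2 of 4, while striated muscle markers were marked at 1 of 5 in either pool. Whether these differences between the pools have a part in the Rab values was not tested.

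Promoter sequences of Rab genes ranged from dense to sparse in CG dinucleotides, and 7 are shown to give the range at marked and unmarked start sites, whose CG numbers overlap. They are RefSeq promoters on build GRCm38.p6, from 250 bases before to 50 after a start site, written 5′ to 3′ on the strand of the gene, with every CG in capitals. Rab6b (chr9:103111824-103112123, plus strand) held 42 CG and lay wholly inside a peak in pool D, in pool C and in the replicated list. Rab15 (minus strand) is shown at 3 of its RefSeq start sites. The outermost (chr12:76822475-76822774) held 38 CG and lay inside a peak in all 3 lists. The next (chr12:76819047-76819346) held 8 CG and lay inside a peak in pool C and the replicated list but not in pool D. The following site (chr12:76818325-76818624) held 3 CG and had no base in a peak in any list. A peak lay 255 bp from that start site in pool C and 366 bp from it in the replicated list. By the 1 kb rule it was thus marked in those lists and unmarked in pool D. Rab19 (chr6:39381103-39381402, plus strand) held 9 CG and carried the narrowest Rab domain of pool D and of the replicated list. Rab17 (chr1:90967618-90967917, minus strand) with 5 CG and Rab25 (chr3:88548230-88548529, minus strand) with 9 CG had no base in a peak.
Rab6b: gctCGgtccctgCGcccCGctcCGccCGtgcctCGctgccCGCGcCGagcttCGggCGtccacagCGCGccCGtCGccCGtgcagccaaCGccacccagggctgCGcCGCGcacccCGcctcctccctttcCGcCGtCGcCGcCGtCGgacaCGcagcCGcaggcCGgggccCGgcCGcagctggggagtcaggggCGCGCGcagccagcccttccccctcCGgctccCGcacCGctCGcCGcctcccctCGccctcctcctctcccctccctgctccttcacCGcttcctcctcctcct
Rab15 outermost start site: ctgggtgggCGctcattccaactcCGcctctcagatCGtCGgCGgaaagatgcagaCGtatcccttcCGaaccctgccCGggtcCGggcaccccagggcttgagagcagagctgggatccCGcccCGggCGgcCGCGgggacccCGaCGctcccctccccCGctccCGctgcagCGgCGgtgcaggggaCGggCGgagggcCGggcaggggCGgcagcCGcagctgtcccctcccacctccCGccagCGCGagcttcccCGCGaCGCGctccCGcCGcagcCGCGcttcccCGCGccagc
Rab15 next start site: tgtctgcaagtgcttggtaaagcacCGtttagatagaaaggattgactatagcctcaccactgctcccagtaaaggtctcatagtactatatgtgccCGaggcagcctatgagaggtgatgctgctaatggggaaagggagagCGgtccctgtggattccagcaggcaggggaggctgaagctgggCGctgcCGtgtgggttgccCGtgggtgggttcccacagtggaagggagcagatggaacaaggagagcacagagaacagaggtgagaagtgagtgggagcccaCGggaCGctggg
Rab15 following start site: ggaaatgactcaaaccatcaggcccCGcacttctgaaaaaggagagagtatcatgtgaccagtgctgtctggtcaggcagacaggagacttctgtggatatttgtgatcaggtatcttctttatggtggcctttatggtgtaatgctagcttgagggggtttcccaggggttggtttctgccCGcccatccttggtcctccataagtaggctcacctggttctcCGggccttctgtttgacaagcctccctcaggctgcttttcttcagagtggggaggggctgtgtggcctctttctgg
Rab19: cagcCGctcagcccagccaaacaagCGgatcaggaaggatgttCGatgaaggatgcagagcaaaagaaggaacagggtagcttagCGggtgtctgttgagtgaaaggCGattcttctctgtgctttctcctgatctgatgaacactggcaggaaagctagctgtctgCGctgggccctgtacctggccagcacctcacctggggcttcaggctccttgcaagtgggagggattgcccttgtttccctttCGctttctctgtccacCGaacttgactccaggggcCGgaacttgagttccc
Rab17: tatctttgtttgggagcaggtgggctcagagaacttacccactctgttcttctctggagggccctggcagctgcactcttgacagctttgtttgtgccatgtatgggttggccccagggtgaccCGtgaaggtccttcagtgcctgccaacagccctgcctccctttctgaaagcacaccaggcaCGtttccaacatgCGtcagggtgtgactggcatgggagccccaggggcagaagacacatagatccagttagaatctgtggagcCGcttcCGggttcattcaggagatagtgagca
Rab25: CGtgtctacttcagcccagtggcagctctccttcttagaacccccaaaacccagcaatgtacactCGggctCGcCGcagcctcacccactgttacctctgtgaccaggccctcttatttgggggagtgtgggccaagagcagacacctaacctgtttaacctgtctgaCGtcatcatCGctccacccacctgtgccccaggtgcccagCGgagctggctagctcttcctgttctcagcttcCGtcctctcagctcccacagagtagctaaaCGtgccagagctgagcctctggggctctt

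RefSeq promoters matched 48 of the 59 Rab genes by symbol and gave 60 promoters of 300 bases. All 60 held CG, against 94.6% of all 32851 promoters of that length. On either strand, the letters GGGCGG, the core of the GC box bound by Sp1 family factors, were found in 41 Rab promoters (68.3%), against 35.7% of all promoters and 65.0% of the 15298 promoters that touch a replicated peak. CCAAT was found in 26 (43.3%), against 37.4% of all and 36.9% of those in a peak. TATAAA was found in 4 (6.67%), against 13.6% of all and 6.49% of those in a peak. The E-box CACGTG was found in 6, against 7.15% of all promoters and 1530 of the 15298 in a peak. TGACGTCA, the palindromic cAMP response element, was found in 2 (3.33%), at Rab5a and at the unmarked Rab25, against 1.79% of all and 3.10% of those in a peak. Except for CCAAT, the shares of all 60 Rab promoters lay within a few percentage points of those of promoters in a peak. Those 60 include promoters with no base in a replicated peak, among them Rab17 and Rab25, so the sets compared are unlike. Shares among only the Rab promoters in a peak are not given here. CG is itself part of the GC box, the E-box and the cAMP response element, so these counts are not independent.

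Nearly all Rab genes were marked. A promoter peak was present at 55 of 59 members (93.2%) in pool D, in pool C, in the replicated list and in the list called on both pools together. The shares over all protein-coding genes were 63.7% in pool D, 66.3% in pool C, 64.8% in the replicated list and 65.6% in the joint list. No Rab gene was marked in 1 pool only, against 2.64% of all genes. The same 4 genes, Rab7b, Rab17, Rab25 and Rab44, lacked a promoter peak in every list.

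Breadth of the Rab domains was close to that of marked genes in general. The median was 2096 bp in pool D and 2531 in pool C for Rab genes, a mean of 2314 ± 307.6 bp (SD, n = 2), against 2035 and 2403 bp for all marked genes, a mean of 2219 ± 260.2 bp (SD, n = 2). The Rab median was the higher in both pools, and no test was made of that difference. In the replicated list the Rab median was 2306 bp with quartiles at 1937 and 3008 bp, against 2234 bp with quartiles at 1632 and 3134 bp for all marked genes. Rab domains gathered toward the middle. Of the 55 members, 9 (16.4%) fell below the lower quartile of all marked genes, 14 (25.5%) between it and the median, 20 (36.4%) between the median and the upper quartile, and 12 (21.8%) above that. Domains over 5 kb were found at 0 of 59 Rab genes in pool D, 1 in pool C and 1 in the replicated list (1.69%), against 3.02%, 6.24% and 4.50% of all genes.

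**Figure D1:**
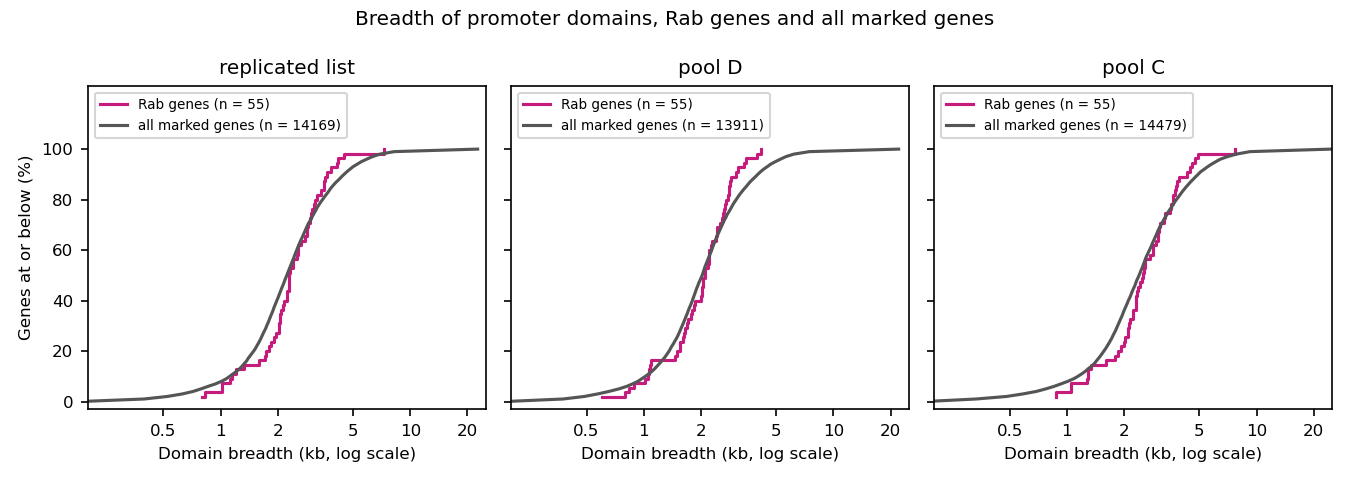
Cumulative share of genes (%, y axis) at or below a given promoter domain breadth (kb, log scale, x axis) for the 55 marked Rab genes and for all marked protein-coding genes, in the replicated list, pool D and pool C. The curves run close together, with medians of 2306 bp for Rab genes and 2234 bp for all marked genes in the replicated list, and the Rab curve is the steeper.

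The 10 broadest Rab domains of the replicated list belonged to Rab26 (7274 bp), Rab30 (4487 bp), Rab6a (4179 bp), Rab6b (4090 bp), Rab40c (3821 bp), Rab10 (3651 bp), Rab28 (3571 bp), Rab14 (3512 bp), Rab3a (3503 bp) and Rab40b (3386 bp). The place of Rab28 rests on a weak inner peak of 383 bp, with a −log10 q of 1.55, outside its domain in either pool. Rab28 measured 2658 bp in pool D, 3304 in pool C and 2977 in the list called on both pools together. The Rab26 domain also holds the start site of Traf7, and its strongest point lay there, 6010 bp downstream of the Rab26 start site, in a peak with a signal value of 29.9. The peak over the Rab26 start site itself measured 2698 bp, with a signal value of 18. Only Rab26 and Rab30 reached the 90th percentile of all marked genes, 4475 bp, in that list. The 5 narrowest belonged to Rab19 (801 bp), Rab37 (823 bp), Rab38 (1022 bp), Rab42 (1023 bp) and Rab3b (1115 bp). Rab19 measured 600 bp in pool D and 882 in pool C. Its peak in pool D was weak, with a −log10 q of 2.7.

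Members are described next by the transport step they are best known for. In whole tissue, fewer cells of a type with the mark and less of the mark per cell cannot be told apart. The role lists, like the other lists used here, were drawn up with earlier results of these data known, and the median of a small list is given as a description.

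**Figure D2:**
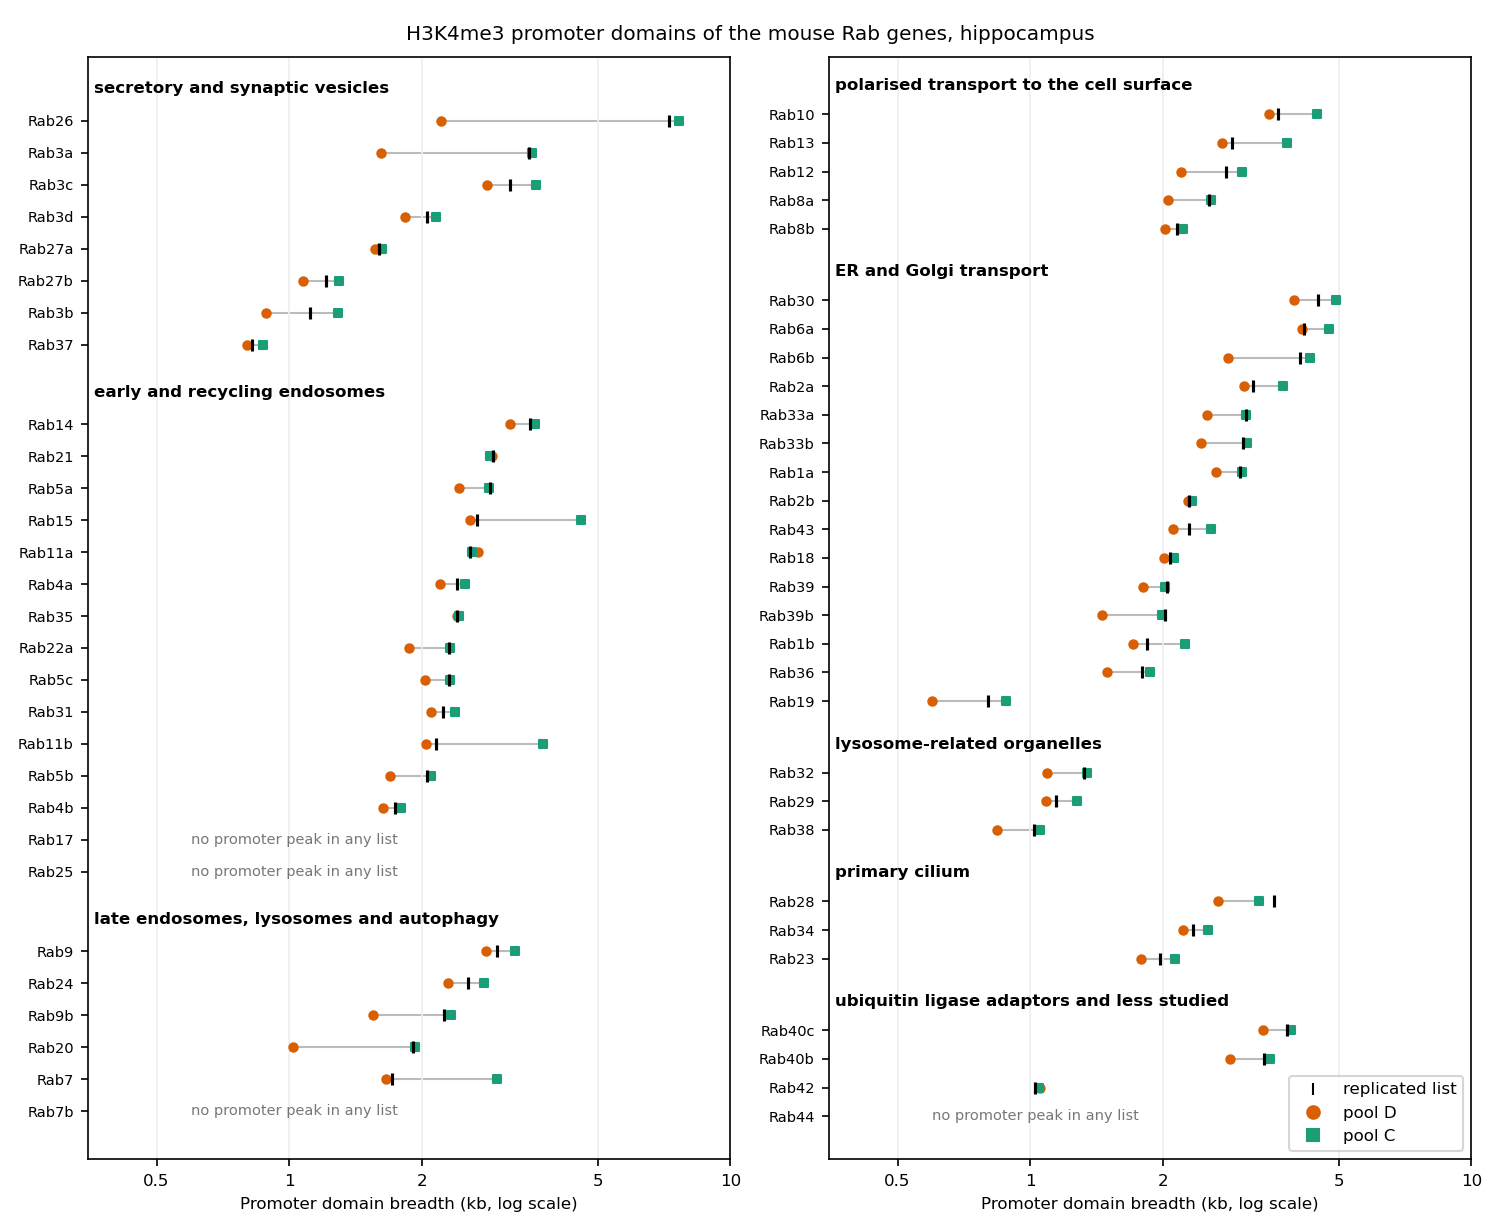
Promoter domain breadth (kb, log scale, x axis) of every Rab gene, grouped by role, with pool D as circles, pool C as squares and the replicated list as vertical ticks. Most members lie between 1 and 5 kb with pool C to the right of pool D, and Rab7b, Rab17, Rab25 and Rab44 have no promoter peak in any list.

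All 8 Rab genes of secretory and synaptic vesicles were marked, with medians of 1588 bp in pool D, 1886 bp in pool C and 1824 bp in the replicated list. Rab3a, which binds RIM and rabphilin on synaptic vesicles and is a main neuronal Rab of exocytosis, measured 1612 bp in pool D and 3559 in pool C (2586 ± 1377 bp, SD, n = 2). Its relatives, which also act in regulated secretion, differed less between the pools with peaks joined, but that contrast depends on the joining. When peaks were left unjoined, Rab3a came to 2319 bp for pool C, against 1612 bp for pool D. Rab3a then no longer counted among the Rab genes at least 1.5 times narrower in pool D. Rab3b, a single peak in either pool, had a ratio of pool D over pool C of 0.688. By ratio, Rab3a with unjoined peaks thus did not differ more than Rab3b. Rab3c measured 2814 bp in pool D and 3617 in pool C, while Rab3d measured 1833 and 2154 bp. Rab3b was the narrowest of the Rab3 genes in every list, with 885 bp in pool D, 1286 bp in pool C and 1115 bp in the replicated list. The order of the other Rab3 genes differed between lists, since Rab3a was broadest in the replicated list (3503 bp) and Rab3c in both pools.

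Rab27a and Rab27b, which dock secretory granules and exosome carriers at the plasma membrane, had narrow domains. Rab27a measured 1563 bp in pool D and 1619 in pool C, while Rab27b measured 1072 and 1297 bp. Rab37, known from secretory granules of mast cells, was narrower still, with 801 bp in pool D and 872 in pool C. Rab26, which links synaptic vesicles to autophagy, measured 2202 bp in pool D and 7666 in pool C, the widest gap between the pools of any Rab gene. With gaps of 3 kb closed instead of 1 kb, pool D came to 7156 bp and pool C stayed at 7666 bp.

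Of 15 Rab genes of early and recycling endosomes, 13 were marked, with medians of 2191 bp in pool D, 2498 bp in pool C and 2397 bp in the replicated list. Its domains ran from 1740 bp at Rab4b to 3512 bp at Rab14 in the replicated list, from 1631 to 3160 bp in pool D and from 1795 to 4583 bp in pool C. The Rab5 genes control fusion of early endosomes. Rab5a measured 2430 bp in pool D and 2837 in pool C, Rab5c 2029 and 2318 bp, and Rab5b 1692 and 2092 bp, so that their order was the same in both pools. Rab4a and Rab4b serve fast recycling to the surface. Rab4a measured 2191 bp in pool D and 2498 in pool C, while Rab4b measured 1631 and 1795 bp, again in the same order in both pools.

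Rab11a and Rab11b run the recycling endosome, which returns glutamate receptors to dendritic spines. Rab11a measured 2685 bp in pool D and 2594 in pool C, while Rab11b measured 2046 and 3764 bp. Rab11a was thus the broader in pool D and Rab11b in pool C. With only peaks of −log10 q of at least 5, Rab11b measured 2046 bp in pool D and 2297 in pool C, below Rab11a in either. Rab14 (3160 bp in pool D and 3613 in pool C) carries cargo between the trans-Golgi network and endosomes. Rab21 (2887 and 2857 bp) directs integrin traffic, and Rab35 (2400 and 2424 bp) directs recycling and neurite outgrowth. The pools were nearly equal at Rab21 and Rab35, while Rab15, an inhibitor of early endocytic traffic, measured 2573 bp in pool D and 4583 in pool C. Rab22a (1868 and 2310 bp) and Rab31 (2096 and 2380 bp), relatives of Rab5 on endosomes and the trans-Golgi network, were near the group median. The unmarked members of this group, Rab17 and Rab25, are known from polarised epithelial cells.

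Late endosomes, lysosomes and autophagy were represented by 6 Rab genes, of which 5 were marked, with medians of 1659 bp in pool D, 2759 bp in pool C and 2241 bp in the replicated list. Rab7, the main Rab of late endosomes and of their fusion with lysosomes, measured 1659 bp in pool D and 2951 in pool C. Its relative Rab7b had no promoter peak. Rab9 and Rab9b, which return cargo from late endosomes to the Golgi, are both X-linked. Rab9 measured 2793 bp in pool D and 3254 in pool C, while Rab9b measured 1551 and 2327 bp, so Rab9 was the broader in both pools. Rab24, which acts in autophagy, measured 2288 and 2759 bp, and Rab20, known from phagosome maturation, 1022 and 1923 bp.

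All 5 Rab genes of polarised transport to the cell surface were marked, with medians of 2199 bp in pool D, 3022 bp in pool C and 2783 bp in the replicated list. Rab10, which acts in dendrite and axon growth and in delivery of glucose transporters, was the broadest, with 3470 bp in pool D and 4465 in pool C. Rab8b was the narrowest, with 2022 bp in pool D and 2225 in pool C, close to its relative Rab8a with 2052 and 2574 bp. Rab12 (2199 and 3022 bp), whose values are the group medians, was listed here although it directs recycling receptors to lysosomes. Rab13 (2726 and 3817 bp) acts at cell junctions.

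The 15 Rab genes of ER and Golgi transport were all marked, with medians of 2277 bp in pool D, 2567 bp in pool C and 2293 bp in the replicated list. This group held 3 of the 4 broadest Rab domains of the replicated list and also the narrowest. Rab6a and the neuron-enriched Rab6b, which carry Golgi vesicles along microtubules, differed in how alike the pools were. Rab6a measured 4139 bp in pool D and 4746 in pool C, while Rab6b measured 2808 and 4312 bp. Rab30, a Golgi Rab, measured 3962 and 4928 bp, and Rab19, a little studied member, was the narrowest.

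Rab1a and Rab1b, which take cargo from the ER to the Golgi, differed from each other in the same direction in both pools. Rab1a measured 2630 bp in pool D and 3023 in pool C, while Rab1b measured 1706 and 2242 bp. Rab2a (3052 and 3737 bp) was broader than Rab2b (2277 and 2331 bp), both of them Rab genes of the early secretory pathway. Rab33a and Rab33b, which act at the Golgi and in autophagy, were nearly equal, with 2522 and 2440 bp in pool D and with 3080 and 3093 bp in pool C. Rab39 measured 1800 bp in pool D and 2017 in pool C. Rab39b, whose human counterpart is mutated in X-linked intellectual disability and parkinsonism, measured 1456 bp in pool D and 1991 in pool C. Rab18, which acts on the ER and lipid droplets, measured 2014 and 2113 bp, Rab36 1491 and 1872 bp, and Rab43 2110 and 2567 bp.

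The remaining groups were small. Rab genes of lysosome-related organelles had the lowest median of the 8 groups in every list, with all 3 members marked and a median of 1085 bp in pool D, 1273 bp in pool C and 1143 bp in the replicated list. Rab32 (1089 bp in pool D, 1344 bp in pool C) and Rab38 (840 and 1051 bp) build melanosomes and related organelles, and Rab29 (1085 and 1273 bp) recruits the kinase Lrrk2. Even the broadest of them, Rab32, lay below the lower quartile of all marked genes in each pool, which was 1489 bp in pool D and 1724 in pool C.

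Rab genes of the primary cilium were all marked, with Rab28 at 2658 bp in pool D and 3304 in pool C, Rab34 at 2216 and 2531 bp, and Rab23, an inhibitor of hedgehog signalling, at 1785 and 2132 bp. Rab40b (2835 and 3499 bp) and Rab40c (3363 and 3897 bp), adaptors of cullin ubiquitin ligases, were broad. Rab42, a little studied Rab, had 1051 bp in pool D and 1049 in pool C, while Rab44 had no promoter peak.

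Paralogues, taken as Rab genes with the same number and different letters, formed 14 groups with 31 genes. In 13 of them all members were marked. The broadest member was the same in pool D, pool C and the replicated list in 10 of these, and changed in Rab3, Rab11 and Rab33. The ratio of the broadest to the narrowest marked member in the replicated list ran from 1.01 for Rab39 to 3.14 for Rab3, and the Rab3 ratio was 3.18 in pool D and 2.81 in pool C. In the Rab7 group only Rab7 was marked.

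The 4 unmarked genes lay at differing distances from the nearest peak. Rab25 was closest, with a start site 3594 bp from a peak in pool D, against 3294 bp in pool C and the replicated list. That peak lay at the start sites of Lamtor2, a scaffold subunit on lysosomes, and Ubqln4, a ubiquitin receptor. Rab44 was 18216 bp away in pool D (18182 bp in pool C), from a peak at the cell cycle inhibitor gene Cdkn1a. Rab17 was 28450 bp away in pool D (28222 bp in pool C), from a peak at Lrrfip1. Rab7b was 30479 bp away in pool D (30469 bp in pool C), from a narrow peak of 396 bp in pool D and 596 in pool C that lay at no protein-coding start site. Its neighbour Rab29, with 5′ ends 178529 bp apart on chromosome 1, was marked. Other Rab neighbours within 1 Mb were Rab7 and Rab43 on chromosome 6 and Rab12 and Rab31 on chromosome 17, all 4 marked.

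Unmarked Rab genes had few CpG dinucleotides at their 5′ ends. Within 500 bp on either side, Rab7b and Rab44 held 16 each, Rab17 19 and Rab25 21. Their median was 17.5, against 61 for the marked Rab genes, whose counts ran from 8 to 137. The observed over expected CpG ratio had a median of 0.242 at unmarked and 0.727 at marked Rab genes. Over all genes the median count was 9 at unmarked and 60 at marked promoters, so the unmarked Rab genes held more CpG than unmarked genes in general and the marked Rab genes about as many as marked genes in general.

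Some marked Rab genes had 5′ ends as poor in CpG as the unmarked ones. Of the 7 Rab genes with at most 20 CpG, 4 were marked (57.1%), against 18.0% of all genes under that limit. They were Rab18 (8), Rab26 (19), Rab19 (20) and Rab27b (20). At Rab18 and Rab26 the start site nearest the strongest point of the peak was another than the 5′ end of the gene and held 55 and 47 CpG. At Rab19 and Rab27b it held 20. Counted at that site, the marked Rab genes had a median of 69 CpG and a range from 20 to 137. Across the 55 marked Rab genes, CpG count and log2 breadth had a Pearson correlation of 0.39 and a Spearman correlation of 0.46, against 0.33 and 0.35 across all 14169 marked genes. This is a description across genes that share the same libraries and that also vary together in GC content.

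**Figure D3:**
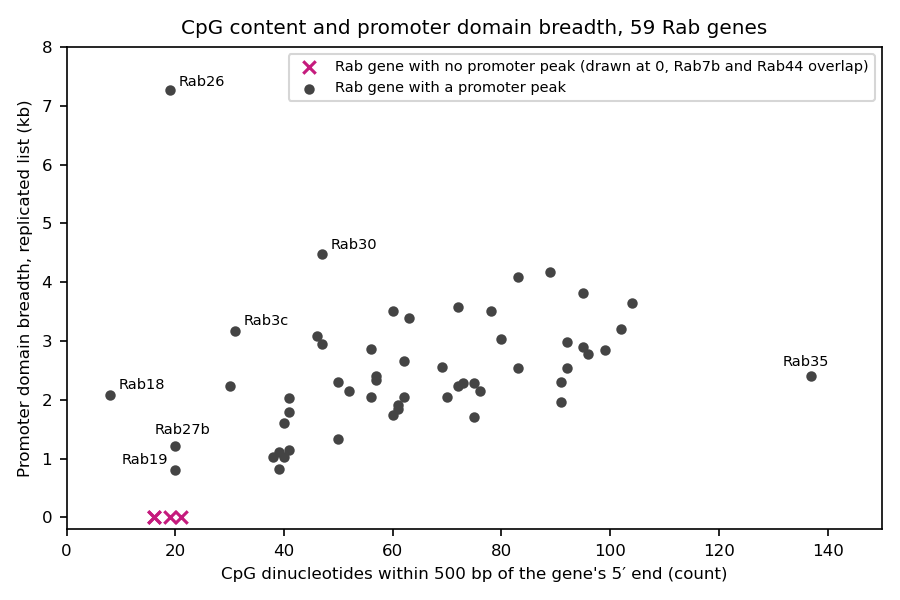
Promoter domain breadth in the replicated list (kb, y axis) against the number of CpG dinucleotides within 500 bp of the 5′ end (x axis) for the 59 Rab genes, 1 point each, with the 4 unmarked genes as crosses at 0. The crosses stand between 16 and 21 CpG, and Rab26 with 19 CpG has the broadest domain at 7274 bp.

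Many Rab genes have several start sites. Of 151 Rab start sites, 124 (82.1%) had a peak within 1 kb in pool D, 127 (84.1%) in pool C and 126 (83.4%) in the replicated list, against 60.7%, 63.5% and 61.9% of all 54361 start sites. Among the 38 marked Rab genes with 2 or more start sites, 10 (26.3%) left at least 1 unmarked in the replicated list, against 41.2% of such genes in general. These were Rab3b, Rab5c, Rab7, Rab9, Rab11a, Rab11b, Rab14, Rab15, Rab30 and Rab37. The unmarked site of Rab7 lay 25487 bp inside the gene from its 5′ end, that of Rab11a 11048 bp and that of Rab14 11160 bp.

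Separate marked domains at different start sites were found at 4 of 55 Rab genes (7.27%), against 7.04% of all marked genes. Rab30 had a domain of 3962 bp in pool D and 4928 in pool C at its 5′ end, and another of 1264 bp in pool D and 1653 in pool C at a start site 35980 bp farther in. Rab13 had a second domain of 642 bp in pool D and 1489 in pool C. Rab27b had a second domain of 975 bp in pool D and 1253 in pool C. These internal domains were narrower than the outer domain of the same gene in both pools. The inner domain of Rab15, 781 bp in the replicated list, covered the sequence with 8 CG shown above, was not present in pool D and was joined to the outer domain in pool C. Rab37 had a second domain in pool C alone, of 478 bp with a −log10 q of 5.06.

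Few Rab domains were shared with another protein-coding gene. A start site of another coding gene lay in the domain of 4 of 55 members (7.27%) in the replicated list, against 19.0% of all marked genes. Rab13 and the ribosomal protein gene Rps27 start 44 bp apart on opposite strands. Rab6a and the mitochondrial ribosomal protein gene Mrpl48 start 304 bp apart on opposite strands, and Rab2b and Tox4 399 bp apart, also on opposite strands. These pairs shared a domain in both pools and in the replicated list, and their peaks cannot be assigned to either gene. Traf7, a ubiquitin ligase gene on the same strand as Rab26, starts 5788 bp downstream of the Rab26 start site, and was inside the Rab26 domain in pool C and the replicated list but not in pool D. Genes of other types, mostly noncoding RNAs, had a start site in the domain of 11 Rab genes (20.0%), against 14.8% of all marked genes. Among them were Gm16091 at Rab8a, 4632427E13Rik at Rab30, E230013L22Rik at Rab20 and Rab26os at Rab26.

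Rab domains reached farther into the gene than in front of it. From the start site nearest the strongest point of the peak, they extended a median of 661 bp upstream and 1337 bp downstream in pool D, and 732 bp upstream and 1795 bp downstream in pool C. In the replicated list the medians were 742 bp upstream and 1510 bp downstream, against 743 and 1328 bp for all marked genes. The downstream side was the longer at 48 of 55 Rab genes in pool D, 52 in pool C and 50 in the replicated list, against 78.3%, 79.7% and 79.2% of all marked genes. In the replicated list the upstream side was the longer at Rab13 (2031 bp upstream and 832 bp downstream), Rab30 (2409 and 2077 bp), Rab24 (1351 and 1191 bp), Rab2b (1279 and 1013 bp) and Rab23 (998 and 971 bp). The strongest point lay downstream of the start site at 50 of 55 members in pool D, 49 in pool C and 50 in the replicated list, against 78.6%, 77.9% and 78.4% of all marked genes. The median offset was 179 bp in either pool.

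Domains were narrower in pool D than in pool C at 52 of 55 Rab genes (94.5%), against 96.8% of the 13907 genes marked in both pools. The exceptions were Rab11a, Rab21 and Rab42. The median ratio of breadth, pool D over pool C, was 0.819 for Rab genes with quartiles at 0.769 and 0.875, against 0.851 with quartiles at 0.759 and 0.917 for all genes. Across the 55 members log2 breadth in pool D and pool C had a Pearson correlation of 0.88 and breadth a Spearman correlation of 0.87. The pool C list is also the longer, and the part of depth in this difference was not tested.

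At 8 of 55 Rab genes (14.5%) the domain was at least 1.5 times narrower in pool D than in pool C, against 12.7% of all genes, a share near the background. They were Rab26, Rab3a, Rab20, Rab11b, Rab15, Rab7, Rab6b and Rab9b. No Rab gene was that much broader in pool D, against 0.0360% of all genes. At Rab3a, Rab7, Rab11b and Rab15 pool C had an additional peak at the edge of the domain, at Rab26 a gap was filled in pool C, and at Rab6b, Rab9b and Rab20 the peak ended farther downstream. At Rab26 (chr17:24526832-24534105 in the replicated list) pool C had 1 peak from 522 bp upstream to 7143 bp downstream of the start site. Pool D had 3 peaks there, ending 1861 bp downstream, spanning 3599 to 5558 bp and spanning 5757 to 6815 bp, and the gap after the Rab26 peak was wider than the 1 kb that was closed. The replicated list held an additional weak peak in that gap, from 2902 to 3443 bp, with a −log10 q of 4.99.

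At Rab3a the peak over the start site reached from 117 bp upstream to 1494 bp downstream in pool D and from 477 bp upstream to 1841 bp downstream in pool C. The domain of pool C also took in an upstream peak of 1019 bp, from -1717 to -699 bp relative to the start site, which was absent from the pool D list, and the gap between both peaks. Its −log10 q was 12.9 in pool C, against 241.1 for the peak over the start site. A separate peak, from 4814 to 6877 bp downstream in pool D and from 4782 to 6918 bp in pool C, lay past the 3′ end of the gene and too far from the domain to be joined to it. At Rab6b a peak of 4312 bp in pool C ended 3566 bp downstream, against 2184 bp downstream in pool D. At Rab11b an outer peak of 477 bp in pool C, with a −log10 q of 2.54, had no counterpart in pool D, and at Rab7 an outer peak of 821 bp in pool C, with a −log10 q of 6.04, had none either. Rab20 and Rab9b had a single peak in either pool, which ended 1026 and 1440 bp downstream in pool D and 1866 and 2194 bp downstream in pool C.

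**Figure D4:**
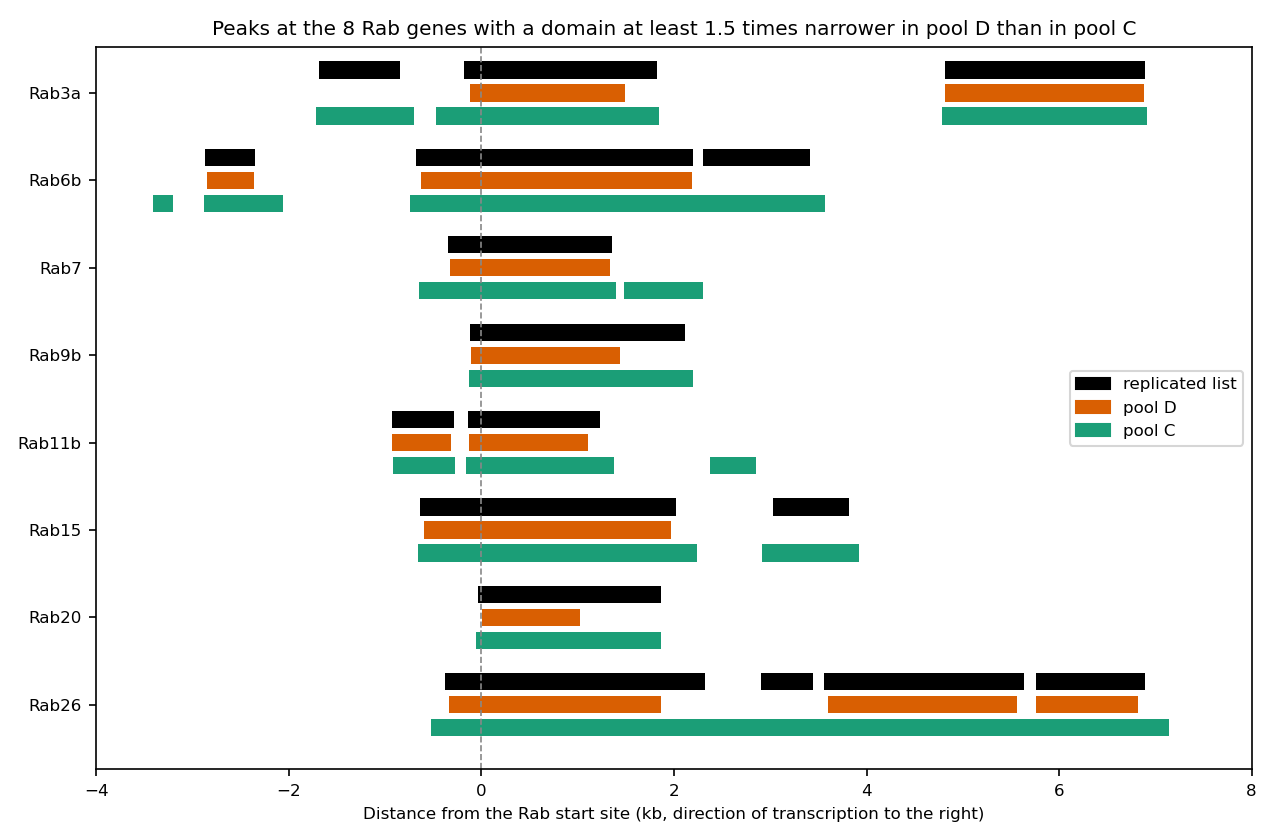
Peaks of the replicated list, pool D and pool C at the 8 Rab genes whose domain was at least 1.5 times narrower in pool D than in pool C, as distance from the start site nearest the strongest peak (kb, x axis, transcription to the right). At Rab26 pool C has 1 peak of 7666 bp where pool D has 3, and at Rab3a the upstream peak is missing in pool D.

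Peak signal, the enrichment the authors' caller gave each peak, was compared within each list only. In pool D the strongest peak of the X-linked Rab genes had signal values of 15.3 at Rab9, 9.22 at Rab9b, 13.1 at Rab33a and 12.8 at Rab39b, a median of 12.9, against a median of 20.5 at the 51 marked autosomal Rab genes. In pool C the values were 19.8, 17.6, 19.7 and 25.3 for the same genes, a median of 19.7, against 32 at autosomal Rab genes. All 4 X-linked members lay below the autosomal median in both pools, and the autosomal range, from 2.98 to 27.6 in pool D and from 6.15 to 42.2 in pool C, covered them. All marked X-linked genes had a median signal of 12.9 in pool D and 21.9 in pool C, against 18.4 and 28.5 for all marked autosomal genes. The mice were male, so that 1 X chromosome stands against a pair of autosomes, and DNA copy number and level of the mark cannot be told apart. Median breadth of the X-linked Rab genes was 2036 bp in pool D, 2704 in pool C and 2597 in the replicated list, against 2096, 2531 and 2306 bp for the autosomal Rab genes, so that their order differed between the pools. All marked X-linked genes had a median of 1747 bp in pool D and 2153 in pool C, against 2044 and 2452 bp for all marked autosomal genes.

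**Figure D5:**
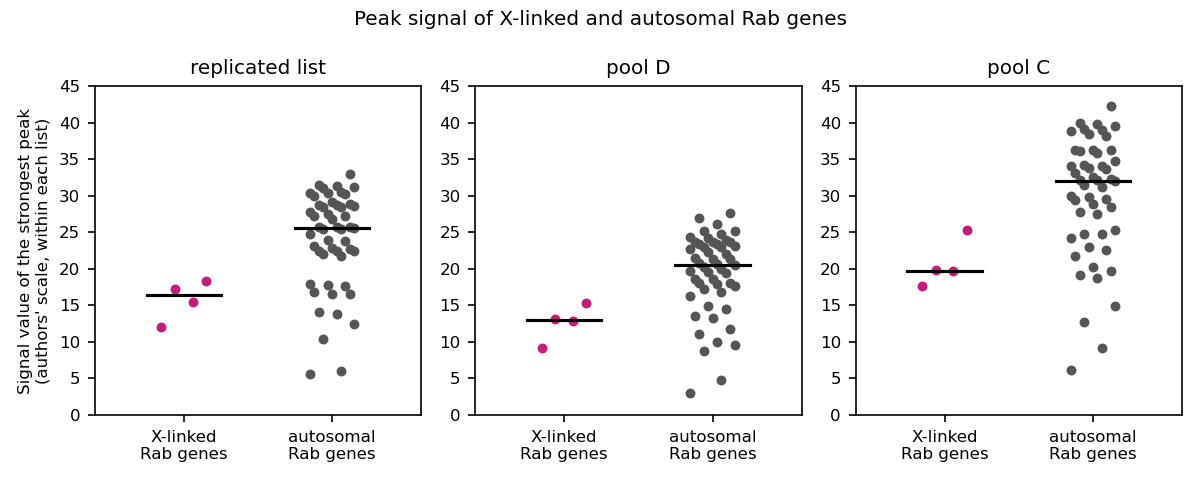
Signal value of the strongest promoter peak (authors' scale, y axis) of X-linked and autosomal Rab genes in the replicated list, pool D and pool C, 1 point per gene with a bar at the median. The 4 X-linked genes lie between 9.22 and 15.3 in pool D, where the autosomal median is 20.5.

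Genes that act on Rab proteins or resemble them were marked at shares close to that of the Rab genes. From 5 lists with 145 genes, 137 (94.5%) had a promoter peak in pool D, 139 (95.9%) in pool C and 138 (95.2%) in the replicated list, against the 64.8% of all genes in that list. GDP dissociation inhibitors and prenylation factors, which keep Rab proteins soluble and add their lipid anchor, were marked at 8 of 8 genes, with medians of 1983 bp in pool D and 2511 in pool C. Their broadest domain was that of Rabggtb, a subunit of the Rab prenylation enzyme, with 3367 bp in pool D and 4994 in pool C, followed by that of Gdi2, with 2553 and 4562 bp.

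Exchange factors were marked at 36 of 37 genes, with medians of 2118 bp in pool D and 2406 in pool C. Sbf1, of the DENN domain family, measured 3257 bp in pool D and 5471 in pool C. Hps4, part of the exchange factor for Rab32 and Rab38, measured 3157 and 4412 bp and shared its domain with Srrd. Dennd1c had no promoter peak. TBC domain GTPase-activating proteins were marked at 37 of 38 genes, with medians of 2042 bp in pool D and 2483 in pool C. Tbc1d24, mutated in human epilepsies, measured 2954 and 6321 bp and shared its domain with Ntn3, and Rabgap1l measured 4432 and 5336 bp. Tbc1d21 had no promoter peak.

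Effectors, which bind the active Rab, were marked at 48 of 54 genes in pool D and 50 of 54 in pool C, with medians of 2300 and 2806 bp. Rph3a, the rabphilin gene whose product binds Rab3a, measured 3317 bp in pool D and 6929 in pool C, while Ehbp1l1, an effector of Rab8, measured 4839 and 7411 bp in a domain shared with Fam89b and Sssca1. The genes without a peak in the replicated list were Rph3al, Sytl1, Sytl3, Sytl5 and Unc13d, and Unc13d was marked in pool C. Rab-like genes were marked at 8 of 8, with the narrowest median of the 5 lists, 1469 bp in pool D and 1692 in pool C. Ift27, a Rab-like subunit of intraflagellar transport, measured 2435 and 2968 bp, and Rabl6 1931 and 2603 bp.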

How the data were processed

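H3K4me3 ChIP-seq peak lists on mm10 were used as the authors deposited them: 1 list for pool D, 1 for pool C, 1 of replicated peaks and 1 called on both pools together. The notes deposited with each library name the alignment and the control alignment behind each list. The sources used here give no peak caller and no settings. The authors deposited a display score, which was not used, a signal value per peak, used only within a list, and −log10 p and −log10 q values, of which q was used in an alternative. The depth of the libraries is unknown from these files, and so is its effect on breadth.

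Start sites came from protein-coding transcripts of GENCODE M21 (21853 genes, 54361 sites). All peaks of a list were joined into domains over gaps of up to 1000 bp. A gene took the domains that had a peak within 1000 bp of a site. CpG was counted within 500 bp of the 5′ end. Promoter sequences are those of RefSeq on GRCm38.p6. Python 3.11.15, numpy 2.4.6, scipy 1.17.1, pysam 0.24.0 and matplotlib 3.10.9 were used.

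The Rab family and the gene lists were chosen with earlier results of these data known, while membership follows from the gene symbol alone. Genes were named by this rule: all unmarked Rab genes, the 10 broadest and 5 narrowest, genes with several or shared domains, all paralogues, the broadest and narrowest of each role, and from each list of Rab regulators the 2 broadest and the first 2 unmarked by symbol. Other Rab genes were named to account for all members. Pools are replicates of 1 group, so no test was made. Alternatives varied the peak threshold, the list, the window, the start sites, the overlap and the gap closed.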

Additional observations from a re-analysis of the deposited data

How the results depend on the processing

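The count of marked Rab genes was 55 in pool D alone and in pool C alone, and 55 in 5 further settings. It was 54 with only the 5′ end of each gene, where Rab18 lost its peak, and 51 with genes in shared domains left out, a setting chosen after seeing the data. Median breadth ran from 2096 bp in pool D alone to 2531 bp in pool C alone, and from 2258 to 2397 bp in the other settings. Domains over 5 kb numbered 0 in pool D alone and 1 in pool C alone. In the replicated list there were 0 with peaks of −log10 q of at least 5. That list also held 0 with no gap closed and 0 with shared domains left out. With gaps of 3 kb closed it held 4 (Rab26, Rab3a at 8579 bp, Rab6b at 6281 bp and Rab19 at 5375 bp). In pool C, gaps of 3 kb also took Rab31 (5013 bp) and Rab40c (8008 bp) over 5 kb. Rab26 measured 2698 bp in the replicated list with no gap closed and also with the stricter q, which drops the weak peak that joins its domain. In both settings Rab26 stayed at 7666 bp in pool C, where it is 1 peak, and at 2202 bp in pool D. With the stricter q, 1 Rab gene, Rab19, was marked in 1 pool only. With at least 500 bp of the peak inside the promoter window, Rab37 lost its mark in pool D, and 54 Rab genes were marked in both pools. The median ratio of pool D over pool C was 0.824 with the stricter q, 0.818 with the 5′ end only, 0.812 with no gap closed and 0.81 with gaps of 3 kb closed. Rab genes at least 1.5 times narrower in pool D than in pool C numbered 8 as reported. With no gap closed there were 6, where Rab3a, Rab7, Rab11b and Rab15 dropped out and Rab9 and Rab37 came in. With gaps of 3 kb closed there were 11, without Rab6b and Rab26 (7156 bp in pool D and 7666 in pool C). The settings for this count were applied after seeing the data. The stricter q left 8, with Rab37 in and Rab11b (2046 and 2297 bp) out. No paired analysis was possible because the pools are replicates of 1 group and no result comes from a test. The peak lists hold no read counts, so that the part of depth in breadth could not be measured.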

Other observations

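Rab genes also held peaks inside the gene and more than 1000 bp from every annotated start site. There were 3 such peaks in 3 of the 59 genes in pool D, 14 in 12 genes in pool C and 8 in 6 genes in the replicated list. Such a peak was found in 11.8% of all protein-coding genes in pool D, 19.3% in pool C and 13.5% in the replicated list. Some of the Rab peaks are the inner part of a promoter domain. The distances given next run from the middle of the peak, unlike those of the unmarked genes above, which run from its edge. In Rab6b a separate peak lay 69303 bp from the nearest start site and was present in all 3 lists, with 639 bp in pool D, 781 bp in pool C and 730 bp in the replicated list. It lay at chr9:103180746-103181475 in the replicated list, with a −log10 q of 16.2. In Rab3c, peaks lay 216966 and 186146 bp from the nearest start site in the replicated list, with −log10 q values of 6.23 and 2.98, and pool D had neither of them. Rab30 had a peak 13092 bp from the nearest start site in the replicated list, and it was present in pool C but not in pool D.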
